A study of Mus musculus with 4 samples.

Results

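The 5p arms of mouse miR-6896 to miR-7094 are a block of consecutively numbered miRNAs, most of them predicted to be cut from short introns. They were chosen by probe name: names from miR-6896 to miR-7094, with an optional letter, that end in 5p. Of 200 such probes, 5 were left out by name, and the remaining 195 of the 1900 miRNA probes on the array are described here. Those left out include 4 unmarked probes, miR-6931-5p, miR-6937-5p, miR-7036a-5p and miR-7077-5p. Each differs in at least 1 comparison by more than any of the 195. The first 3 had log2 differences of 4.84, 2.99 and 3.56 between day 1 organoids and crypts, where the 195 reached 2.44. miR-7077-5p had 2.79 between villus and crypt, where the 195 reached 2.44 as well. The spread of the 195 is therefore a trimmed one. The left-out miR-7000-5p carries a quality mark on the crypt array. The probes miR-7094b-2-5p and miR-7094-1-5p have names of another form and are not counted.

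Total RNA of 4 mouse samples was labelled with Cy5 and measured on miRNA arrays with 1 colour. The samples were organoids cultured from small intestinal crypts on day 5, the same kind of organoids on day 1, villus epithelial cells of the small intestine, and crypt epithelial cells. Organoids are epithelial cultures started from crypts, the pockets that hold the dividing stem and progenitor cells, whereas villi carry the differentiated cells. The labels give no strain, age, sex or number of animals, and no organoid medium. Each group had 1 array and each miRNA 1 spot, so no test was possible and every difference describes these arrays. As read from the names of the deposited scans, the day 5 array lay on a slide of its own and the other 3 shared a slide. What belongs to day 5 and what to the slide therefore cannot be told apart. In bulk RNA, fewer cells of a type and less RNA per cell cannot be told apart either.

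A mirtron is a short intron that folds into a hairpin once it has been spliced out. In the simplest form of mirtron both ends are set by the splicing machinery rather than by Drosha, the nuclear enzyme that trims ordinary miRNA precursors. Dicer then cuts the hairpin into a 5p and a 3p arm. A spliced intron ends in AG, so that a mirtron's 3p end falls on this dinucleotide. Which messenger RNAs a miRNA can pair with depends largely on its seed, bases 2 to 8 from the 5′ end. Most miRNAs of this block have no established function.

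Most hairpins of the members end as a spliced intron does, and few begin as one does. RefSeq (GRCm38.p6) held a mature sequence for 171 of the 195 members and a hairpin for 166 of them. Of these hairpins, 153 (92.2%) end in AG, against 71 of 825 other mouse hairpins in the table (8.61%). Only 25 (15.1%) begin with GU, the start of most introns, against 50 of the other hairpins (6.06%). Both ends were met by 19 (11.4%), against 9 of the others (1.09%) and 2 of the 3 lower-numbered mirtrons miR-702, miR-877 and miR-1224. Of the 166, 148 (89.2%) lie within the span of a protein-coding gene on the same strand, against 40.7% of the others. The table gives gene spans and no exons, so it does not show whether the place is an intron. The members' hairpins have a median length of 66.0 nt, against 82.0 nt for the others. The hairpins of 5 members that recur in the results below are shown with the 5p arm and the final AG in capitals.
miR-7053-5p: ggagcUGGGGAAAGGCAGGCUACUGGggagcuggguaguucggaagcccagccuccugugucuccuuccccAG
miR-7047-5p: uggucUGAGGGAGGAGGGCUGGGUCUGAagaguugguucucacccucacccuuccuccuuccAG
miR-6968-5p: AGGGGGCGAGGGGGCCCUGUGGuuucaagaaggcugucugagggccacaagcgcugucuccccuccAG
miR-6999-5p: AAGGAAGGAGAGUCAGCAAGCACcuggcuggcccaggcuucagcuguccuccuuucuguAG
miR-7033-5p: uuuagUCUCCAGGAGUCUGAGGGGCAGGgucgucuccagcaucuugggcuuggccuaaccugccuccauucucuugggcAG
The 5p arm starts at the first base of the miR-6968 and miR-6999 hairpins and after 5 bases in the other 3. In GRCm38.p6 these hairpins lie at chr7:44538106-44538178 (minus strand, within the span of Pold1, the catalytic subunit of DNA polymerase delta), chr7:24987604-24987667 (minus strand, within no protein-coding gene span of that strand), chr17:26935472-26935539 (plus strand, within Phf1, a chromatin protein), chr2:91944870-91944930 (minus strand, within Dgkz, a diacylglycerol kinase) and chr5:135383730-135383810 (minus strand, within Pom121, a protein of the nuclear pore), in the order shown. The host transcripts themselves were not measured.

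The 5p arms are rich in G. The median share of G in the mature sequence was 44.0% over the 171 members, ranging from 13% to 66.7%, against 14.3% over the 3p arms of the same numbers and 26.1% over all other miRNAs on the array with a sequence. A run of GGGG occurred in 64 of the 171 (37.4%), against 1.13% of the 3p arms and 8.89% of the other miRNAs. Mature lengths ran from 18 to 26 nt with a median of 22.0 nt. The seed held GGG in 92 members. The 171 sequences had 150 different seeds, and 18 seeds were held by more than 1 member, 39 members in all. Mature sequences of members that the comparisons turn on follow, with the seed in capitals. The first 4 were higher on an organoid array than on the crypt array, the next 3 were higher on the villus array, and the last 4 were higher on the crypt array than on an organoid array.
miR-7053-5p: uGGGGAAAggcaggcuacugg
miR-7047-5p: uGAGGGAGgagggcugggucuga
miR-6944-5p: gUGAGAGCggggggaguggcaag
miR-6941-5p: cUGGGGGAcugacggguagcu
miR-6999-5p: aAGGAAGGagagucagcaagcac
miR-7027-5p: uGGAAAGGaagaaacagcagagc
miR-6991-5p: uGGAGAACagggacugggccug
miR-7033-5p: uCUCCAGGagucugaggggcagg
miR-6955-5p: aGGGCCUCaggacucaggagguga
miR-7059-5p: aCCGGGGAcugcggcuuucagu
miR-7090-5p: uCUCAGAGuugggacaccaugag
Of these, miR-7090-5p lies within the span of Ctnnb1, which encodes beta-catenin of the Wnt pathway, and miR-6941-5p within that of Jag2, a Notch ligand.

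Most members gave a signal above the blank spots. Detection meant an intensity over a limit set by the blank spots of the same array, their mean plus 2 SD. Of the 195 members, 175 (89.7%) were detected on the day 5 organoid array, 183 (93.8%) on the day 1 organoid array, 183 (93.8%) on the villus array and 177 (90.8%) on the crypt array. Over all 1897 miRNA probes with no quality mark the shares were 71.6%, 82.0%, 79.4% and 66.8% in the same order. All 4 arrays detected 168 members (86.2%), against 60.5% of all miRNA probes and 73.6% of the 3p arms. On the crypt array, 75.6% of the 3p arms were detected, fewer than of the 5p arms, whereas on the day 1 array the shares of both arms were nearly equal (94.0% of the 3p arms). Of the members, 7 were detected on no array (miR-6902-5p, miR-6903-5p, miR-6938-5p, miR-6948-5p, miR-6976-5p, miR-7064-5p and miR-7073-5p, named here after their values were seen).

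**Figure D1:**
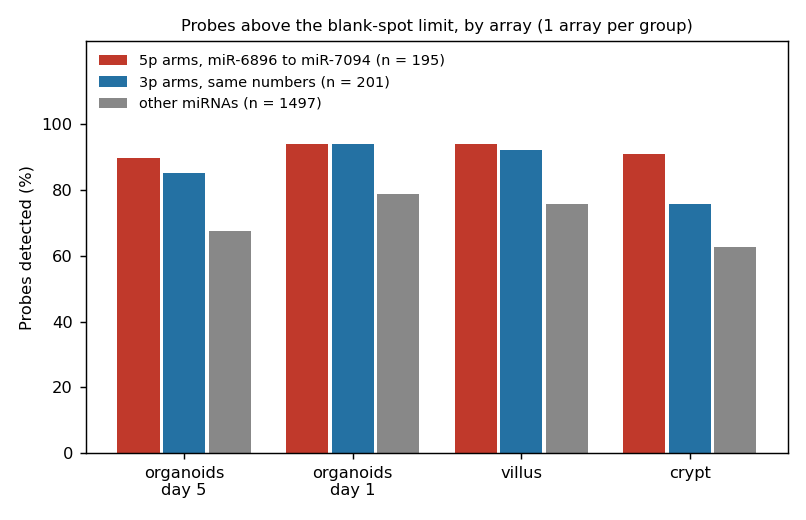
Percentage of probes above the blank-spot limit (vertical axis) on each of the 4 arrays, for the 5p arms of miR-6896 to miR-7094, the 3p arms of the same numbers and all other miRNAs. The 5p bars lie between 89.7% and 93.8%, and the bars of the other miRNAs between 62.5% and 78.8%.

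A signal above the blanks was often a faint one. The median spot intensity of the members was 90.1 on the day 5 array, 150 on the day 1 array, 222 on the villus array and 78.8 on the crypt array. The limits of detection were 70.5, 82.3, 108 and 69.5 in the same order, so the typical member lay least far above the limit on the crypt array. Control probes above the limit numbered 10 to 14 an array, each with at least 8 spots. The SD between their spots had a median of 0.033 to 0.075 on the log2 scale within an array. The highest SD was 0.081 on the day 5, 0.43 on the day 1, 0.12 on the villus and 0.13 on the crypt array. This error covers spots and not samples, and these arrays allow no error between samples to be measured. Detection shows that RNA bound a probe, and the probe sequences, which bear on what else can bind, were not analysed here.

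For comparison between arrays, intensities were background-corrected, log2 transformed and quantile normalized, which gives the 4 arrays the same distribution over all miRNAs. These values are called levels below. A difference of 2-fold was taken as a call, and where 1 array alone detected a probe only a bound was used. Quantile normalization hides any shift shared by all miRNAs. The median difference of all miRNAs was -0.66 for villus minus crypt with Spike Control scaling after the same background correction, and 1.23 with the blank mean subtracted instead, so the sign of such a shift was not settled by these arrays. Every direction below is therefore relative to the other miRNAs.

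Day 1 organoids had more members far above the crypt level than far below it. Of 187 members detected on either array, 22 were at least 2-fold higher on the day 1 array and 4 lower, that is 11.8% and 2.14%. Over all 1597 miRNAs detected on either array, 5.2% were at least 2-fold higher and 6.2% lower. The median difference over 173 members detected on both arrays was 0.06 (log2), against 0.01 over all miRNAs, and 105 of the 173 were above 0. The middle of the members thus lay close to that of all miRNAs, and the 2-fold calls stood at the ends of their range.

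Among the higher members, the largest differences were those of miR-7053-5p, miR-7023-5p, miR-7047-5p and miR-6935-5p, taken over members with a level above the middle of all miRNAs. miR-7053-5p had a level of 9.52 on the day 5, 10.15 on the day 1, 8.08 on the villus and 7.71 on the crypt array, so it was 5.42-fold higher on day 1 than in crypts (log2 2.44). Its spot intensities were 528, 1944, 689 and 110 in the same order. miR-7023-5p had levels of 7.76, 9.03, 7.02 and 6.88 in that order, 4.43-fold higher on day 1 than in crypts, and was highest on the day 1 array. miR-7047-5p had levels of 10.32 on day 5, 10.23 on day 1, 7.91 in villus and 8.14 in crypt, and both organoid arrays lay above both tissue arrays (day 1 minus crypt 2.09). miR-6935-5p had 8.17, 9.34, 8.59 and 7.32 in the same order and was 4.07-fold higher on day 1 than in crypts, with the villus array also above the crypt array.

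At the other end, 4 members were at least 2-fold lower on the day 1 than on the crypt array. miR-7059-5p, within the span of the lysosomal gene Cln3, had levels of 9.33 on day 5, 8.86 on day 1, 9.47 in villus and 10.28 in crypt, 2.67-fold lower on day 1 than in crypts. miR-7033-5p had 8.39, 8.52, 8.38 and 9.86 in the same order (day 1 minus crypt -1.33) and was lower on all 3 other arrays than on the crypt array. miR-7090-5p had 7.04, 6.83, 6.71 and 8.0 (day 1 minus crypt -1.17), the same order of crypt above the rest. miR-6955-5p had 8.99, 9.41, 11.06 and 10.51, lower on both organoid arrays than on both tissue arrays (day 1 minus crypt -1.10). With scaling to the 75th percentile this last difference was 0.10 and with Spike Control scaling 0.13, the reverse sign. With the background column of the tables subtracted, 9 members were at least 2-fold higher and 8 lower, so that the excess of higher calls was not seen there. The counts were 34 higher and 1 lower with scaling to the 75th percentile, where 7.64% of all miRNAs were higher and 2.88% lower. Spike Control scaling gave 35 and 1, against 7.89% and 2.63% of all miRNAs. With the blank mean subtracted before Spike Control scaling the counts were 145 and 4, against 64.5% and 4.57% of all miRNAs. Most of the miRNAs were thus called higher in that setting.

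**Figure D2:**
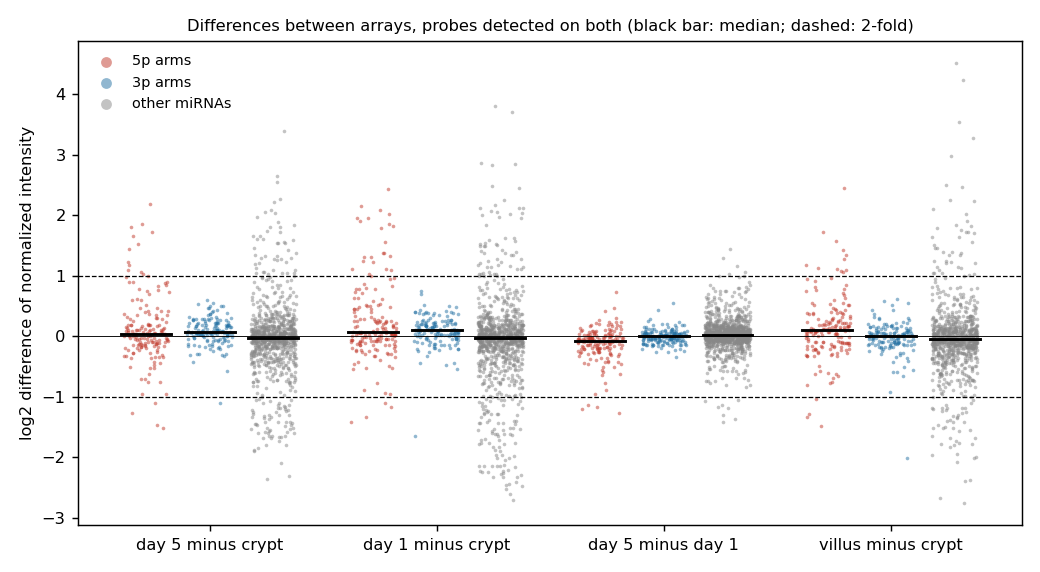
Log2 differences (vertical axis) of probes detected on both arrays, for 4 pairs of arrays, with 1 point per probe, black bars at medians and dashed lines at 2-fold. The 5p arms reach 2.44 in day 1 minus crypt and in villus minus crypt with medians near 0, and of the 3p arms miR-7000-3p alone passes a dashed line.

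Day 5 organoids against crypts gave a similar picture with fewer calls. The comparison shares the crypt array with the one above, so the values are given side by side and not as a repeat. Of 183 members detected on either array, 13 (7.1%) were at least 2-fold higher on the day 5 array and 4 (2.19%) lower, where all miRNAs had 4.37% higher and 5.12% lower. The median over 169 members was 0.03, against 0.00 over all miRNAs. miR-7047-5p was 4.54-fold higher on day 5 than in crypts. miR-6968-5p had levels of 12.98 on day 5, 12.26 on day 1, 11.69 in villus and 11.14 in crypt, and was 3.59-fold higher on day 5 than in crypts. Its intensities were 5839, 8601, 9644 and 709. miR-7053-5p was 3.50-fold and miR-6980-5p 3.32-fold higher on day 5 than in crypts. miR-6980-5p had levels of 9.98 on day 5, 10.20 on day 1, 9.38 in villus and 8.25 in crypt.

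The members lower on day 5 than in crypts were miR-6955-5p (2.86-fold), miR-7033-5p (2.77-fold), miR-6988-5p (2.41-fold) and miR-6917-5p (2.15-fold). miR-6988-5p lies within the span of Syvn1, a ubiquitin ligase of the endoplasmic reticulum, and had levels of 8.93 on day 5, 9.31 on day 1, 8.86 in villus and 10.20 in crypt. miR-6917-5p had 6.68, 7.81, 7.17 and 7.78 in the same order, lowest on day 5. All 4 differences stayed below 0 in every setting tried, but with scaling to the 75th percentile and with Spike Control scaling no member was at least 2-fold lower, and 21 and 27 were higher. All miRNAs had 5.26% higher and 1.02% lower with the 75th percentile, and 7.1% and 0.205% with Spike Control scaling. With the blank mean subtracted before Spike Control scaling, 95 members were higher and 5 lower, against 43.9% and 3.69% of all miRNAs. With the background column subtracted, 5 members were at least 2-fold higher and 6 lower, against 3.62% and 3.48% of all miRNAs. The deposited values gave 39 and 23, against 16.4% and 17.2% of all miRNAs.

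Between the organoid arrays, more members lay lower on day 5 than higher. Of 185 members detected on either array, none was at least 2-fold higher on day 5 than on day 1 and 4 (2.16%) were lower, where all miRNAs had 0.319% higher and 0.893% lower. The median over 173 members was -0.08, against 0.01 over all miRNAs, and 49 of the 173 (28.3%) were above 0, against 51.9% of all miRNAs. The members lower on day 5 were miR-7023-5p (log2 -1.27), miR-6941-5p (-1.21), miR-6935-5p (-1.17) and miR-6917-5p (-1.13). miR-6941-5p had levels of 7.38 on day 5, 8.59 on day 1, 6.94 in villus and 6.76 in crypt, a peak on the day 1 array alone. The largest difference the other way was miR-6968-5p at 0.73, followed among the brighter members by miR-7059-5p at 0.47, miR-6912-5p at 0.42 and miR-7072-5p at 0.31. With the background column subtracted the count was 3 higher and 1 lower, against 1.66% of all miRNAs each way. With Spike Control scaling after the blank mean was subtracted none was higher and 39 were lower. All miRNAs had 0.957% higher and 19.3% lower in that setting.

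**Figure D3:**
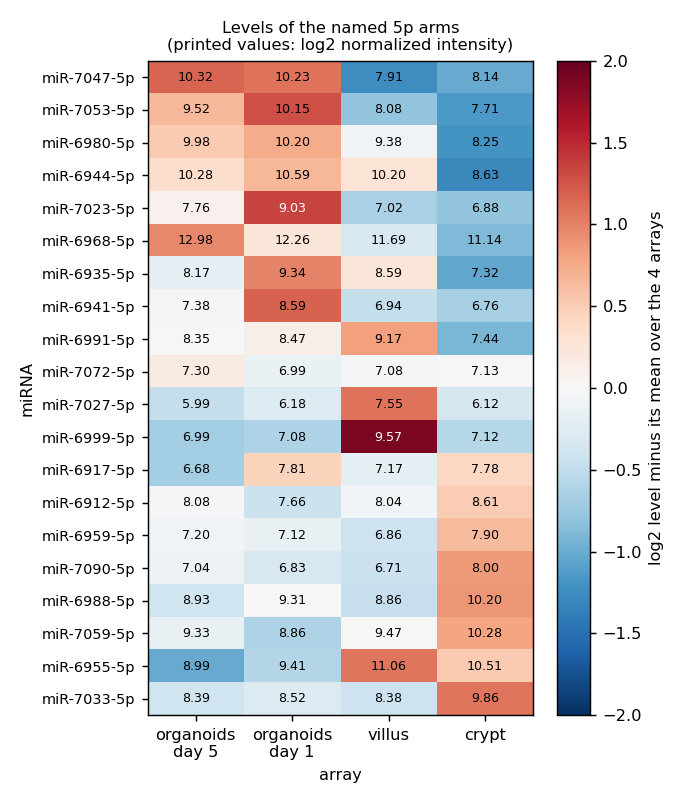
Levels of the 20 members named for a difference measured on both arrays of a pair (rows) on the 4 arrays (columns), with the log2 normalized intensity printed and the colour giving the level minus the member's mean over the 4 arrays. miR-7047-5p and miR-7053-5p stand above their means on both organoid arrays, miR-6999-5p on the villus array and miR-7033-5p on the crypt array.

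The villus array, too, had more members at least 2-fold above the crypt level than below it. This array also held more RNA of markers of other tissues. miR-143-3p and miR-145a-5p of smooth muscle and fibroblasts were higher there than in crypt by 4.24 and 4.51 (log2). Further markers are given below, and their part in the differences of the members was not tested. The comparison shares the crypt array with both comparisons of organoids with crypts. Of 187 members detected on either array, 12 (6.42%) stood at least 2-fold above the crypt level in villus and 4 (2.14%) below, where all miRNAs had 3.84% higher and 3.33% lower. The median over 173 members was 0.10, against -0.03 over all miRNAs. miR-6999-5p was 5.44-fold higher in villus than in crypt, with levels of 6.99 on day 5, 7.08 on day 1, 9.57 in villus and 7.12 in crypt, so it was high on the villus array alone. Its intensities were 109, 199, 1972 and 91.0 in the same order. miR-7027-5p, within the span of the ubiquitin ligase gene Ube3b, had levels of 5.99, 6.18, 7.55 and 6.12, again high on the villus array alone and 2.69-fold higher there than in crypts. miR-6991-5p had 8.35, 8.47, 9.17 and 7.44 and was 3.30-fold higher in villus than in crypt, with the organoid arrays in between. miR-6944-5p, within the span of the actin-binding drebrin gene Dbn1, had 10.28, 10.59, 10.20 and 8.63, lowest on the crypt array and 2.97-fold higher in villus than in crypt. It differed from the crypt array by 1.65 on day 5 and 1.96 on day 1 as well, whereas miR-6999-5p had -0.14 and -0.04.

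Lower in villus than in crypt were miR-7033-5p (log2 -1.48), miR-6988-5p (-1.34), miR-7090-5p (-1.28) and miR-6959-5p (-1.04). miR-6959-5p had levels of 7.20 on day 5, 7.12 on day 1, 6.86 in villus and 7.90 in crypt. With Spike Control scaling 25 members were at least 2-fold higher and 25 lower, against 5.82% and 25.1% of all miRNAs. With the blank mean subtracted 134 were higher and 4 lower, against 58.2% and 2.18% of all miRNAs. The balance of directions thus changed with the scaling for all miRNAs as well as for the members. The members' median lay above that of all miRNAs in both settings, by 0.47 and 0.37.

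Markers of cell types differed between the arrays as well. All 8 listed miRNAs of intestinal epithelium, among them miR-192-5p and miR-200c-3p, were detected on all 4 arrays. They summed to an intensity above blank of 8990 on day 5, 14000 on day 1, 62600 in villus and 17600 in crypt. On the normalized scale all 8 were lower than in crypts, by log2 differences of -2.36 to -1.37 on day 5, -2.53 to -2.14 on day 1 and -1.65 to -0.62 in villus. On day 1 all 8 stayed lower in every scaling and background setting tried, and on day 5 all but 1 with the background column subtracted. For villus the sign depended on the scaling, with 3 of 8 below 0 when scaled to the 75th percentile and 6 of 8 with Spike Control scaling. Their part in the members' differences between organoids and crypts was not tested. miR-143-3p and miR-145a-5p of smooth muscle and fibroblasts, neither of them detected on day 5 and both on the other 3 arrays, summed to an intensity above blank of 2.93 on day 5, 23.7 on day 1, 21800 in villus and 68.6 in crypt. The 4 leukocyte markers summed to 21.7, 54.0, 1590 and 26.8 in the same order. The pair of red blood cell markers summed to 14.3, 28.5, 2130 and 12.6, and the pair of endothelial markers to 2.40, 12.8, 665 and 6.92. The villus array was the brightest of the 4, with Spike Control spots 28361 above blank, against 8578 on day 5, 16422 on day 1 and 8540 on the crypt array. The part of these cells in the differences of miR-6999-5p, miR-7027-5p and the other members higher on the villus array was not tested.

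Differences of the 5p arm went without differences of like size in the 3p arm. The fainter 3p arms had median intensities of 81.0 on day 5, 115 on day 1, 149 in villus and 73.1 in crypt. The 5p medians were 90.1, 150, 222 and 78.8, and the limits of detection 70.5, 82.3, 108 and 69.5, in that order. Faint probes can hardly reach 2-fold with the offset of the background correction. The part of brightness in the contrast between the arms was not tested. Every member has a 3p probe on the array with the same number. Of 130 hairpins with both arms measured on the day 1 and crypt arrays, 23 had a 5p arm that differed by at least 2-fold, none had such a 3p arm, and the 3p arms of those 23 lay between -0.45 and 0.75. The correlation of the 2 arms' differences across these hairpins was 0.00 (Pearson) and 0.10 (Spearman). For day 5 minus crypt it was 0.19 and 0.18 over 124 hairpins, for day 5 minus day 1 0.05 and 0.11 over 148, and for villus minus crypt 0.07 and 0.08 over 131. The hairpins of a pair share the same 2 arrays, and these values are a description. While miR-7053-5p differed by 2.44 between day 1 and crypt, miR-7053-3p had 0.09, and while miR-6999-5p differed by 2.44 between villus and crypt, miR-6999-3p had 0.06. miR-7047-3p, at 0.75 for day 1 minus crypt, was the highest of those 23. Over all 201 3p probes, the only one past 2-fold was miR-7000-3p (day 1 minus crypt -1.66, villus minus crypt -2.0), whose 5p arm is the probe with the quality mark. The SD of day 1 minus crypt differences across probes was 0.66 over the 5p arms, 0.25 over the 3p arms and 0.79 over the other miRNAs.

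**Figure D4:**
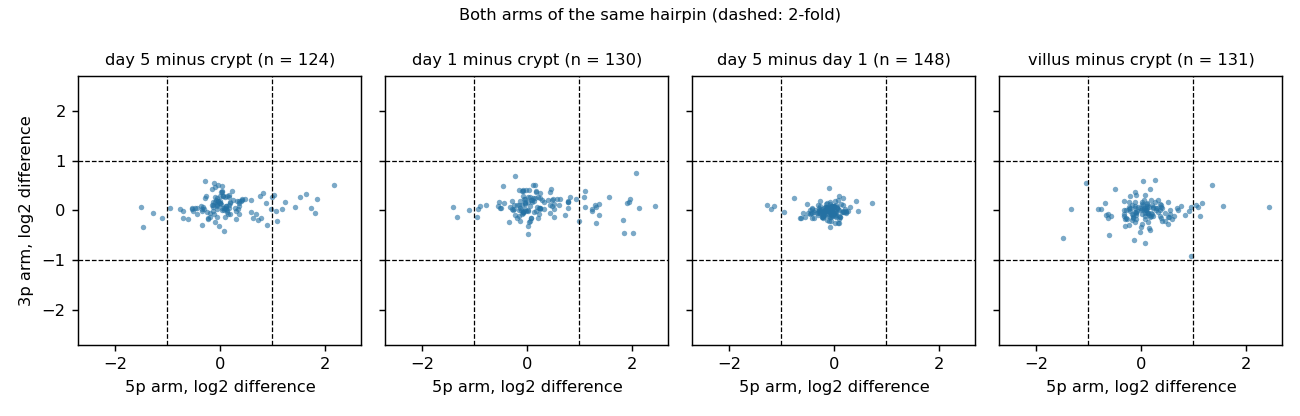
Log2 difference of the 5p arm (horizontal axis) and of the 3p arm (vertical axis) of the same hairpin, for 4 pairs of arrays, with 1 point per hairpin measured in both arms and dashed lines at 2-fold. The points spread along the horizontal axis and, for these hairpins, stay within 2-fold on the vertical axis.

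The share of G went with the difference between organoids and crypts. Across members measured on both arrays, the rank correlation of the share of G with the difference was 0.41 for day 5 minus crypt (n = 148) and 0.41 for day 1 minus crypt (n = 152), 0.18 for villus minus crypt (n = 152) and -0.15 for day 5 minus day 1 (n = 152). The first 2 values share the crypt array, and all members on a pair of arrays share hybridisation and brightness. For day 1 minus crypt the correlation lay between 0.30 and 0.51 in every setting tried, for day 5 minus crypt between 0.33 and 0.47, and for villus minus crypt between 0.09 with cyclic loess and 0.36 with scaling to the 75th percentile or to Spike Control after normexp. For day 5 minus day 1 it ranged from -0.41 to 0.14 and so had no settled sign.

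Members were also split by their share of G into 3 groups. Of 53 members with 50% to 66.7% G, all detected, 10 were at least 2-fold higher on day 1 than in crypts and none lower, with a median difference of 0.24. Of 53 with 41.7% to 47.8% G, 6 were higher and 2 lower, with a median of 0.05. Of 65 with 13% to 40.9% G, 58 were detected on either array, 1 was higher and 2 were lower, with a median of -0.07. Over all 1597 miRNAs detected on either array, 5.2% were higher and 6.2% lower. Both arrays measured 47 members of the group with least G, against 53 of the middle group and 52 of the group with most. Faint members can hardly reach 2-fold with the offset of 50, and the part of brightness in these counts was not tested. Over the other miRNAs on the array the rank correlation was 0.25 for day 5 minus crypt (n = 706) and 0.30 for day 1 minus crypt (n = 753). Over the 3p arms, which hold little G, the values were -0.25 and -0.23. The share of G and C together gave 0.30 for both comparisons over the members, and 0.50 and 0.51 over the other miRNAs. Length gave -0.11 and -0.05 over the members.

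**Figure D5:**
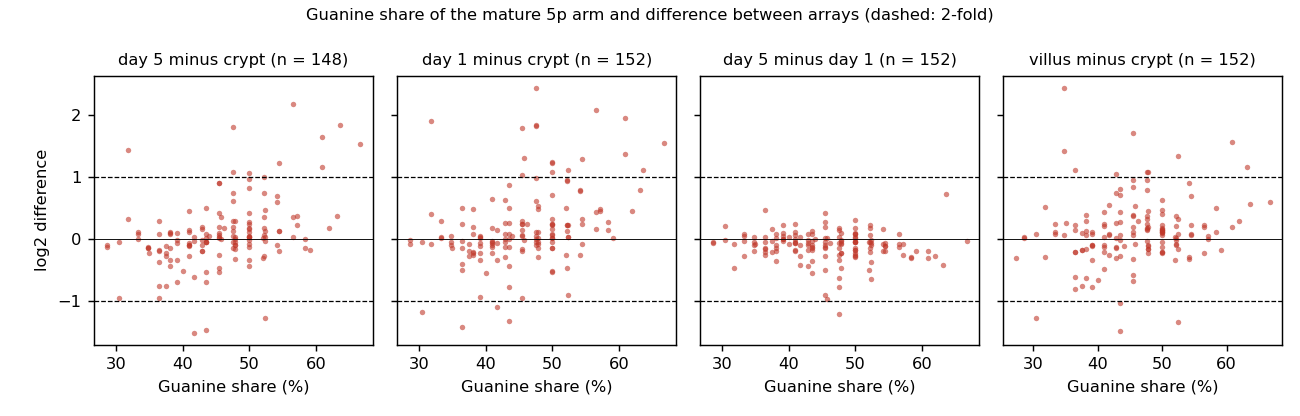
Guanine share of the mature 5p arm in percent (horizontal axis) against the log2 difference (vertical axis) for 4 pairs of arrays, with 1 point per member detected on both arrays and dashed lines at 2-fold. In both comparisons of organoids with crypt, most points above the upper dashed line lie at shares of 40% and more.

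Of the 18 seeds held by more than 1 member, 5 had a member at least 2-fold different in any of the 4 comparisons. In none of the 5 did a second member with that seed pass 2-fold in the same comparison. In day 1 minus crypt, the comparison with the most calls, 11.8% of members were higher and 2.14% lower. With so few calls a second call on a seed would be rare in any case, so the count says nothing about seeds. miR-7047-5p shares the seed GAGGGAG with miR-6965-5p, which had 0.25 for day 1 minus crypt, where miR-7047-5p had 2.09. miR-6941-5p shares UGGGGGA with miR-7024-5p, and the differences were 1.83 and 0.03. miR-6999-5p shares AGGAAGG with miR-7054-5p, and for villus minus crypt they had 2.44 and -0.11. miR-7027-5p shares GGAAAGG with miR-7010-5p, at 1.43 and -0.21 in the same comparison. miR-6914-5p shares CCUGGGG with miR-6904-5p, at 1.31 and 0.05 for day 1 minus crypt. The first of these pairs is printed to show how far the likeness goes beyond the seed.
miR-7047-5p: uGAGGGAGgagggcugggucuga
miR-6965-5p: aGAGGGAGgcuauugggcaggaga

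miR-1224-5p, which like the members is a G-rich 5p arm (61.9% G), had levels of 8.58 on day 5, 9.06 on day 1, 7.48 in villus and 7.54 in crypt, higher on both organoid arrays (day 5 minus crypt 1.04, day 1 minus crypt 1.52). Its 3p arm had 0.62 and 0.37 in the same comparisons. miR-877-5p had 0.29 and 0.37 and miR-702-5p -0.09 and 0.19, so that of the 3 such 5p arms, 1 passed 2-fold.

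Of the probes left out by name, 3 were far higher on the organoid arrays than on the crypt array and 1 on the villus array. miR-6931-5p, whose sequence holds 66.7% G, had levels of 10.70 on day 5, 13.31 on day 1, 10 in villus and 8.47 in crypt. miR-6937-5p had 10.83, 11.32, 8.68 and 8.33, and miR-7036a-5p had 10.15, 11.21, 7.69 and 7.65, in the same order. miR-7077-5p had 6.54, 6.52, 10.87 and 8.08, highest on the villus array and 2.92-fold lower on day 5 and 2.95-fold lower on day 1 than in crypts. With these 4 added, day 1 organoids had 25 members at least 2-fold above crypts and 5 below, and 14 were higher and 4 lower in villus than in crypt.

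Bounds on members detected on 1 array of a pair were all under 2-fold. The largest was miR-7037-5p, detected on the crypt and day 5 arrays and on the villus array but not on day 1, at least 1.81-fold lower on day 1 than in crypts. miR-6961-5p was detected on the other 3 arrays but not on the crypt array, and was at least 1.36-fold higher in villus than in crypt. miR-6951-5p, detected on the crypt array alone, was at least 1.31-fold lower on day 1 than in crypts and at least 1.24-fold lower on day 5. miR-6897-5p was at least 1.29-fold higher on day 5 than in crypts.

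Across the 4 arrays, 43 of the 168 members detected on all of them (25.6%) spanned at least 2-fold between their highest and lowest level. The same held for 1 of 148 of the fainter 3p arms (0.676%) and 201 of 828 other miRNAs (24.3%). The highest level of the 43 members fell on the day 5 array in 4, the day 1 array in 22, the villus array in 12 and the crypt array in 5. The lowest fell on the crypt array in 24. Among the 201 other miRNAs the crypt array was highest in 91 and lowest in 53, and the day 1 array was highest in 43 and lowest in 92. The comparisons of day 5 with day 1 and of villus with crypt share no array, and across the 168 members their differences had a correlation of -0.21 (Pearson) and -0.21 (Spearman), given as a description.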

How the data were processed

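Per the file headers, each deposited scanner table gives each spot's median intensity, linear and put together from 3 scanner gains. RNA was labelled with Cy5, per the labels' protocols. Scanner and array maker were not given in the sources used here. The authors' deposited processed values are intensities too. Each column followed the spot medians of its array along a straight line (largest residual 0.0535), with medians of 25.0 to 25.1, and was used as an alternative. The steps behind it were not given.

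Spot intensities were corrected with normexp (offset 50) over all 3200 spots, log2 transformed and quantile normalized over 1897 miRNA probes (limma 3.58.1, R 4.3.3). The column named as background median was used only as an alternative. Detection used 896 blank spots after the highest and lowest 5% were left out. Where 1 array of a pair detected a probe, the other array's level was replaced by its lowest detected level if that was higher. Simulated data with known changes were used to test the script. RefSeq sequences were matched by name. Members and lists were chosen with earlier results of these data known. Named members are, per comparison, the 4 largest differences each way among members that both arrays detected and whose mean level exceeded the median over miRNAs, and the 2 largest bounds each way. Also named are the left-out probes, members that share a seed, and the listed markers and lower-numbered mirtrons. The seed counts over all shared seeds were added after the values were seen.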

Additional observations from a re-analysis of the deposited data

Results flagged for a closer look

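The probe for miR-7000-5p entered no comparison because of its quality mark, yet its spot lay above the blank limit on every array. Its intensity was 76.3 on the day 5 array, 99.0 on the day 1 array, 167 on the villus array and 75.2 on the crypt array, against limits of 70.5, 82.3, 108 and 69.5. The mark is on the crypt array only.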

How the results depend on the processing

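No paired analysis was possible because each group has 1 array. For the same reason no array could be left out and slide could not be entered as a block. Adding the 4 left-out probes or raising the detection limit to the blank mean plus 3 SD moved none of the counts or medians of members by more than 1.5 times or the spot error. The other settings moved several, and the cause was not tested. Counts are given as members at least 2-fold higher and lower, followed by the percentages of all miRNAs detected on either array. Scaling to the 75th percentile gave 21 and 0 for day 5 minus crypt, 34 and 1 for day 1 minus crypt, 0 and 9 for day 5 minus day 1, and 34 and 10 for villus minus crypt. All miRNAs had 5.26% and 1.02%, 7.64% and 2.88%, 0.0638% and 1.85%, and 9.09% and 7.04%. Spike Control scaling after normexp gave 27 and 0, 35 and 1, 0 and 5, and 25 and 25 in that order (all miRNAs 7.1% and 0.205%, 7.89% and 2.63%, 0.191% and 1.08%, and 5.82% and 25.1%). Spike Control scaling with the blank mean subtracted, a setting chosen after seeing the data, gave 95 and 5, 145 and 4, 0 and 39, and 134 and 4 (all miRNAs 43.9% and 3.69%, 64.5% and 4.57%, 0.957% and 19.3%, and 58.2% and 2.18%). Subtraction of the background column gave 5 and 6, 9 and 8, 3 and 1, and 11 and 5 (all miRNAs 3.62% and 3.48%, 3.63% and 3.82%, 1.66% and 1.66%, and 3.65% and 3.39%). The deposited values gave 39 and 23, 70 and 10, 1 and 25, and 57 and 13 (all miRNAs 16.4% and 17.2%, 26.1% and 16.3%, 2.95% and 12.5%, and 17.9% and 12.1%). An offset of 16 gave 20 and 7, 28 and 7, 0 and 5, and 19 and 5 (all miRNAs 6.08% and 6.63%, 7.01% and 9.08%, 0.702% and 1.15%, and 5.18% and 5.05%). Cyclic loess gave 8 and 3, 16 and 5, 0 and 4, and 10 and 2 (all miRNAs 2.87% and 4.85%, 3.69% and 6.76%, 0.446% and 1.02%, and 3.65% and 2.82%). The members' median minus that of all miRNAs was 0.03, 0.06, -0.09 and 0.13 in the same order. It was 0.08, 0.36, -0.25 and 0.47 with scaling to the 75th percentile and with Spike Control scaling after normexp, 0.13, 0.16, -0.16 and 0.37 in the deposited values, and 0.14, 0.16, -0.16 and 0.37 with the blank mean subtracted. With the background column subtracted it was 0.01, -0.02, 0.02 and 0.07, so the signs for day 1 minus crypt and for day 5 minus day 1 turned, as did that for day 5 minus crypt with cyclic loess (-0.02). Among 32 differences of named members, 28 of them at least 2-fold, 25 stayed at least 2-fold with cyclic loess, 27 in the deposited values, 16 with the 75th percentile, 17 with Spike Control scaling after normexp, 16 with the blank mean subtracted and 13 with the background column subtracted. The sign reversed only for miR-6955-5p in day 1 minus crypt, at 0.10 when scaled to the 75th percentile, 0.13 when scaled to Spike Control after normexp and 0.21 with the blank mean subtracted. Faint signal limits the sizes: many members lay little above blank on the crypt array, where the offset of 50 shrinks differences.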
